A study of Homo sapiens with 9 samples.

Results

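NF-kappa B is a family of dimeric transcription factors, and the 9 genes described here cover its parts and some of its products. They were picked by gene symbol from all genes in the deposited tables, with earlier results of these data known. No threshold on their values was used. NFKB1, NFKB2, RELA and RELB encode 4 subunits, NFKBIA and TNFAIP3 encode 2 inhibitors, and CXCL1, CXCL3 and IL8 (CXCL8 in current naming) encode 3 chemokines. All 9 were found both in the deposited table of normalized counts, which holds 17518 genes, and in the FPKM table, which holds 57820.

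The cells were COR-L279, a human small cell lung cancer line of the neuroendocrine subtype called SCLC-N, which is defined by the neuronal transcription factor NEUROD1. JQ1 blocks the acetyl-lysine pocket of BET bromodomain proteins, the chromatin readers that help RNA polymerase start and elongate transcripts. Wild-type COR-L279 cells were exposed for 24 h to 0.5 µM JQ1, to 1.5 µM JQ1 or to the vehicle DMSO, with 3 biological replicates in each group. All groups are 1 cell line, and no NF-kappa B stimulus is named in the labels. The question the design puts to these genes is how their mRNA levels change at each dose relative to vehicle.

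In resting cells NF-kappa B dimers are held in the cytoplasm by inhibitors of the IkB family. Signals from cytokine or pattern-recognition receptors activate the IKK kinases, the inhibitor is degraded, and the dimer enters the nucleus. There it drives genes that include its own inhibitors, which close the loop, and chemokines that draw in neutrophils. In epithelial cancers the CXCL chemokines are classic inflammatory outputs of the pathway.

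The promoters of 5 of the genes are printed so that matches to a kappa B-like motif can be read beside the mRNA values. CXCL1, CXCL3 and IL8 had the deepest losses of mRNA, TNFAIP3 came next, and NFKBIA changed least among the genes that fell. Each line gives the 250 bases before the RefSeq transcription start in build GRCh38.p14, 5′ to 3′ on the gene's strand. CXCL1 lies at chr4:73869143-73869392 on the plus strand and CXCL3 at chr4:74038690-74038939 on the minus strand. IL8 lies at chr4:73740319-73740568 on the plus strand, TNFAIP3 at chr6:137867009-137867258 on the plus strand and NFKBIA at chr14:35404750-35404999 on the minus strand. Capitals mark matches to GGNNTTTCC, a kappa B-like motif, on either strand.
CXCL1: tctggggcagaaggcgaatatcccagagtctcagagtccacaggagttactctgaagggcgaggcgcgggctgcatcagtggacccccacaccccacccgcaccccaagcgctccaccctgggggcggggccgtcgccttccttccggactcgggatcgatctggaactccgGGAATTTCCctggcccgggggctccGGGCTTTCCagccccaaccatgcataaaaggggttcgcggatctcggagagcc
CXCL3: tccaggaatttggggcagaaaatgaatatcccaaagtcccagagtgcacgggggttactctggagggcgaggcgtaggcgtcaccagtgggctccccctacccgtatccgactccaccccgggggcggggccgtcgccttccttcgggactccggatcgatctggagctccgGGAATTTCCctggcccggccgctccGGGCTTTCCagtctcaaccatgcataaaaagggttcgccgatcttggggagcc
IL8: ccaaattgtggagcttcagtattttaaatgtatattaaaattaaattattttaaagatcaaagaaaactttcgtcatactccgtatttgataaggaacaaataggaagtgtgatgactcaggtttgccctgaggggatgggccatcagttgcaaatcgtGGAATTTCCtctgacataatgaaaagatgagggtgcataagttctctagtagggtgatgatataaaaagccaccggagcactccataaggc
TNFAIP3: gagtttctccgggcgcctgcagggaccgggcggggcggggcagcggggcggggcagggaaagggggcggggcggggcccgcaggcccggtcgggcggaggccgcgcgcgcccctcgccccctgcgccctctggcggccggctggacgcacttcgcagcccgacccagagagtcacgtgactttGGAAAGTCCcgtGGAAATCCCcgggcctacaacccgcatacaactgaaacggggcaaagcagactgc
NFKBIA: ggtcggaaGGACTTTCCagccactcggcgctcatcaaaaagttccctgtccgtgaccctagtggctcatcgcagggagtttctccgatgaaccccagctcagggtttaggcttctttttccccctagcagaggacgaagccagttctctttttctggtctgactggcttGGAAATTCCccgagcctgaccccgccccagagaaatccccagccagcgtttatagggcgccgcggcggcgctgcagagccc

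The motif was searched in windows of 300 bases, from 250 before to 50 after each start. It was found in 2198 of 35116 RefSeq windows (6.26%), and the stricter form GGAATTTCC, a subset of it, in 162 windows (0.461%). CXCL1 held the stricter form beginning 78 bases before its start and a second match at 53 bases. CXCL3 had matches at the same 2 distances, and its window was 82.5% identical to that of CXCL1 over the aligned columns, gaps counted. The IL8 window had a single match, of the stricter form, 91 bases before the start, and was 44.0% identical to that of CXCL1 by the same measure. TNFAIP3 held 2 matches on the opposite strand, at 67 and 55 bases, neither of the stricter form. NFKBIA held matches at 242 and at 81 bases, the nearer one of the stricter form on the opposite strand.

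Among the subunit genes, NFKB1 had the stricter form 48 bases before 1 of its 2 annotated starts. NFKB2 had a match before 2 of its 3 starts, at 77 and at 20 bases. Both RELA windows were without these letters, and RELB was not matched in the table. In all, 7 of the 8 genes with a window held the motif and 5 held the stricter form. The motif was chosen with these promoters in view, so the count describes the sequences and is no test. NFKBIA, with 2 matches, and the chemokines, with 1 or 2, fell by different amounts. Any link between the matches and the mRNA changes was not tested.

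**Figure D1:**
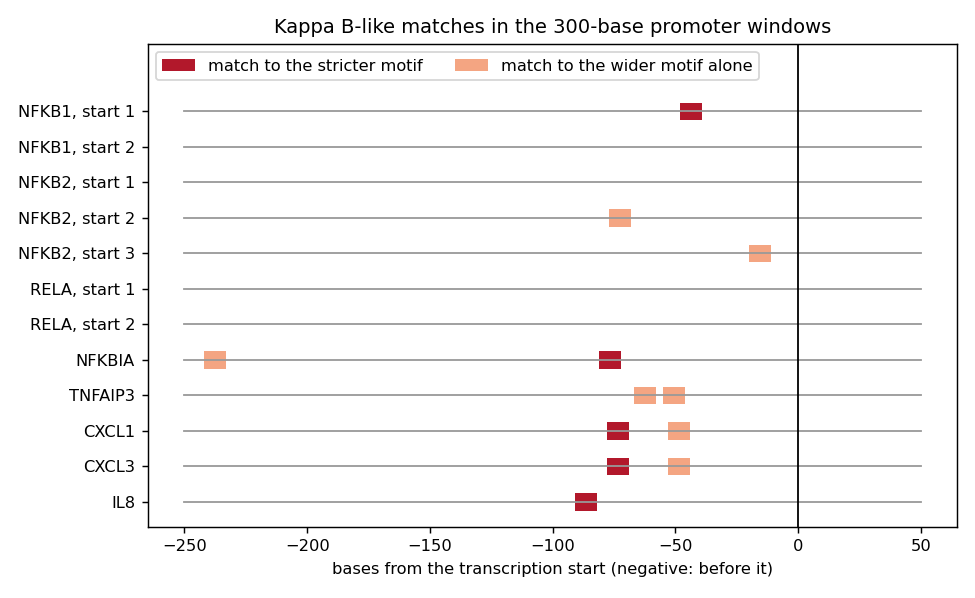
Position of kappa B-like matches in the promoter windows of the 8 genes with a RefSeq entry; each grey line is 1 window, the x axis is the distance in bases from the annotated transcription start, and bars are matches to the stricter motif (dark red) or to the wider motif alone (light red). CXCL1 and CXCL3 share their match distances of 78 and 53 bases, and neither RELA window holds a match.

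The libraries held between 60721187 and 88482001 reads over the genes of the count table. Cells were checked by their markers: NEUROD1 averaged 354 FPKM at 0.5 µM, 361 FPKM at 1.5 µM and 267 FPKM in DMSO, and POU2F3, the marker of another subtype, was at most 0.10 FPKM. HEXIM1, a transcript known to rise under BET inhibition, was 5487 ± 75.2 normalized counts at 0.5 µM and 6976 ± 144 at 1.5 µM, against 1125 ± 21.7 in DMSO (SD, n = 3 each). In 3 JQ1 libraries (0.5 µM replicate 3, 1.5 µM replicates 1 and 2) H19 was 1476 to 2071 normalized counts, where the remaining JQ1 libraries had at most 8.22 and DMSO libraries 63.8 to 82.8. The same 3 libraries had more of the fibroblast genes COL3A1 (2.74 to 3.05 FPKM, at most 0.50 elsewhere) and DCN (0.40 to 0.41 FPKM, at most 0.02 elsewhere). These do not stand for all fibroblast genes listed. COL1A1 averaged 96.2 normalized counts at 0.5 µM, 98.8 at 1.5 µM and 106 in DMSO, and was not called at either dose. COL1A2 was lower under JQ1, with 1692 at 0.5 µM and 1539 at 1.5 µM, against 3939 in DMSO. Results for the 9 genes are also given without the 3 H19-high libraries where a call or a direction changes.

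JQ1 lowered most of the 9 NF-kappa B genes at both doses. At 0.5 µM, 8 of 9 genes fell and 0 rose at an adjusted p under 0.05 (limma on log2 values, Benjamini-Hochberg over 17514 genes), and the same count fell at 1.5 µM. JQ1 moved most of the transcriptome: 70.0% of genes passed at 0.5 µM (35.3% higher, 34.7% lower) and 73.1% at 1.5 µM (36.9% higher, 36.2% lower), so passing the test was common and the direction and size carry the description. The median log2 change of the 9 genes was -1.03 at 0.5 µM and -0.91 at 1.5 µM, where the median over all genes was -0.010 at 0.5 µM and -0.0030 at 1.5 µM. At least 2-fold lower were 5 of the 9 genes at 0.5 µM (10.1% of all genes) and 4 at 1.5 µM (11.8% of all genes), namely TNFAIP3 and the 3 chemokines at both doses and RELB at 0.5 µM. The JQ1 and DMSO libraries did not overlap for 8 of the 9 genes at either dose, as for 72.6% of all genes at 0.5 µM and 81.7% at 1.5 µM. RELA was the exception in both counts. In bulk RNA, fewer cells expressing a gene and less RNA per cell cannot be told apart.

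**Figure D2:**
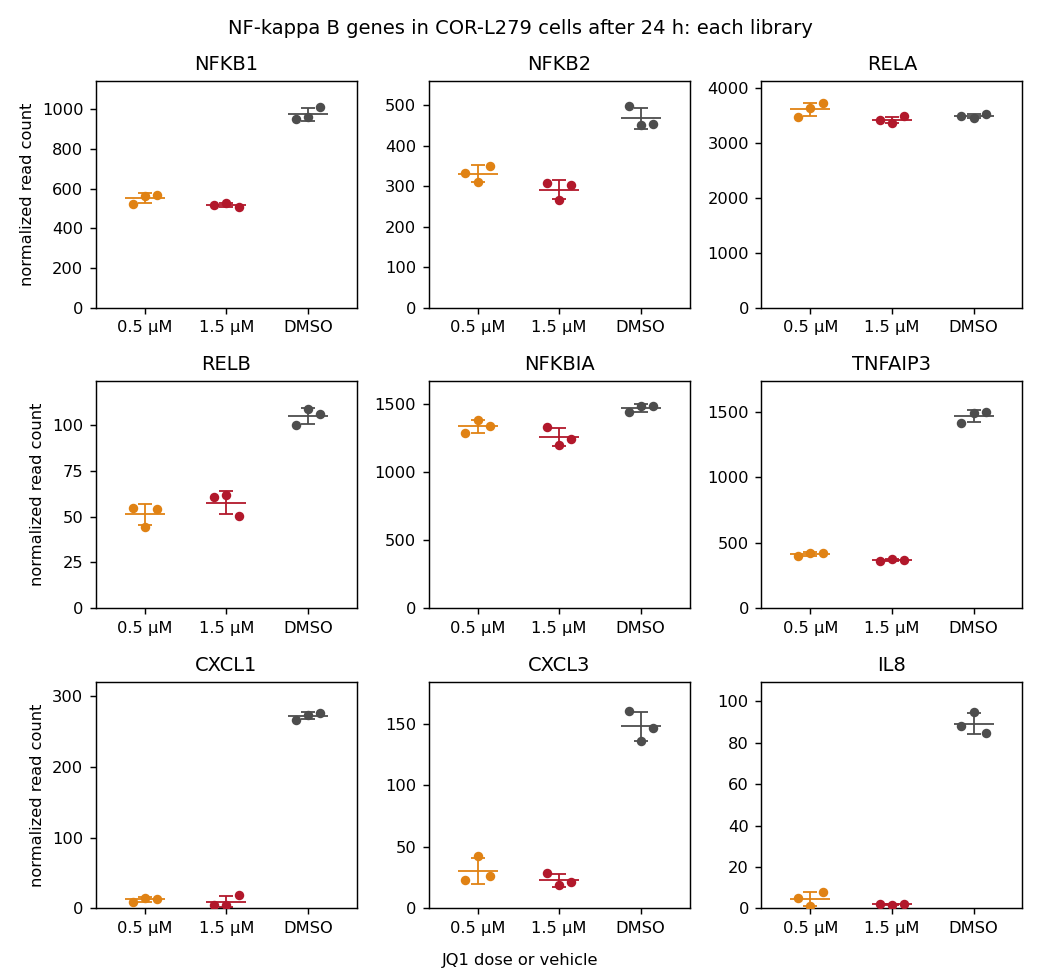
Normalized read count (y axis, from 0) of each of the 9 genes in every library; points are the 3 replicates of 0.5 µM JQ1, 1.5 µM JQ1 and DMSO, and horizontal marks with bars are the mean and SD. The JQ1 points lie below all DMSO points in every panel but RELA, and the gap is widest for CXCL1 and IL8 and narrow for NFKBIA.

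Among the subunits, NFKB1, NFKB2 and RELB fell and RELA did not pass the test at either dose. NFKB1 (ENSG00000109320.7) encodes a precursor that is processed into the DNA-binding subunit of the classical dimer. It had 523, 566 and 570.1 normalized counts at 0.5 µM and 519.5, 527 and 509.9 at 1.5 µM, against 951, 960.3 and 1014 in DMSO. All 6 JQ1 libraries stood far below all 3 DMSO libraries. The log2 change was -0.82 ± 0.055 (SE, limma adjusted p 3.58e-07) at 0.5 µM and -0.91 ± 0.055 (adjusted p 1.13e-07) at 1.5 µM.

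NFKB2 (ENSG00000077150.13) encodes the precursor used in the non-canonical branch of the pathway. Its libraries had 333, 311 and 352 normalized counts at 0.5 µM and 308, 265 and 303 at 1.5 µM, against 498, 451 and 455 in DMSO. The groups were again separate from DMSO, and the 1.5 µM values lay just below the 0.5 µM values. On the log2 scale this was a change of -0.50 ± 0.084 (SE, limma adjusted p 0.00035) at 0.5 µM and -0.68 ± 0.084 (adjusted p 2.77e-05) at 1.5 µM. On the FPKM scale the change at 0.5 µM was larger, -0.78.

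RELB (ENSG00000104856.9), the usual partner of the NFKB2 product, had the lowest FPKM of the subunit genes. It had 54.99, 44.6 and 54.1 normalized counts at 0.5 µM and 60.8, 62.1 and 50.3 at 1.5 µM, against 100.4, 108.9 and 106.3 in DMSO. Every DMSO library exceeded every JQ1 library, and the 2 doses overlapped. RELB thus changed by -1.03 ± 0.16 in log2 (SE, limma adjusted p 0.000154) at 0.5 µM and -0.86 ± 0.16 (adjusted p 0.000492) at 1.5 µM.

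RELA (ENSG00000173039.14) encodes the main transactivating subunit of the classical dimer. It had 3468, 3629.6 and 3713 normalized counts at 0.5 µM and 3408, 3364 and 3477 at 1.5 µM, against 3482, 3446 and 3521 in DMSO. The 3 groups overlapped. The log2 difference was 0.05 at 0.5 µM (95% confidence interval -0.03 to 0.13, limma adjusted p 0.231) and -0.03 at 1.5 µM (-0.11 to 0.05, adjusted p 0.484). At 0.5 µM the sign turned to -0.0052 with upper-quartile scaling.

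Per transcript length, RELA dominated the subunit mRNAs, and its share was higher in JQ1 libraries. FPKM, which divides by transcript length, averaged 22.7 ± 1.47 at 0.5 µM, 20.9 ± 0.556 at 1.5 µM and 22.7 ± 0.285 in DMSO for RELA (SD, n = 3 each). NFKB1 and NFKB2 followed at a much lower level, and both were lower under JQ1. NFKB1 averaged 2.33 ± 0.286 FPKM at 0.5 µM, 2.19 ± 0.342 at 1.5 µM and 4.08 ± 0.265 in DMSO. NFKB2 averaged 1.87 ± 0.292 FPKM at 0.5 µM, 1.77 ± 0.155 at 1.5 µM and 3.26 ± 0.260 in DMSO. Below these came RELB, with 0.353 ± 0.0473 FPKM at 0.5 µM, 0.413 ± 0.0850 at 1.5 µM and 0.780 ± 0.101 in DMSO. In every group the order by FPKM was RELA, NFKB1, NFKB2 and RELB, and single libraries of NFKB1 and NFKB2 overlapped at 0.5 µM but not at 1.5 µM or in DMSO.

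REL, the remaining subunit gene, is on the list of further family members and is named here after its values were seen, to complete the set. It moved the other way, with 758, 989.6 and 834 normalized counts at 0.5 µM and 797, 1064 and 993 at 1.5 µM, against 446, 512 and 604 in DMSO. The JQ1 libraries all lay above the DMSO libraries. Its log2 change was 0.73 ± 0.14 (SE, limma adjusted p 0.00085) at 0.5 µM and 0.87 ± 0.14 (adjusted p 0.000209) at 1.5 µM. The makeup of the subunit mRNAs was shifted toward RELA and REL in the JQ1 libraries. Of the summed FPKM of the 5 subunit genes, RELA made up 78.7% ± 0.460 at 0.5 µM, 77.5% ± 1.96 at 1.5 µM and 71.5% ± 1.01 in DMSO. NFKB1 made up 8.05% ± 0.638 at 0.5 µM, 8.13% ± 1.16 at 1.5 µM and 12.9% ± 0.781 in DMSO. REL made up 5.54% ± 0.615 at 0.5 µM, 6.28% ± 0.954 at 1.5 µM and 2.88% ± 0.719 in DMSO. The RELA share did not overlap between either dose and DMSO (exact two-sided permutation p = 0.1 for each, the smallest that 3 against 3 libraries allow).

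**Figure D3:**
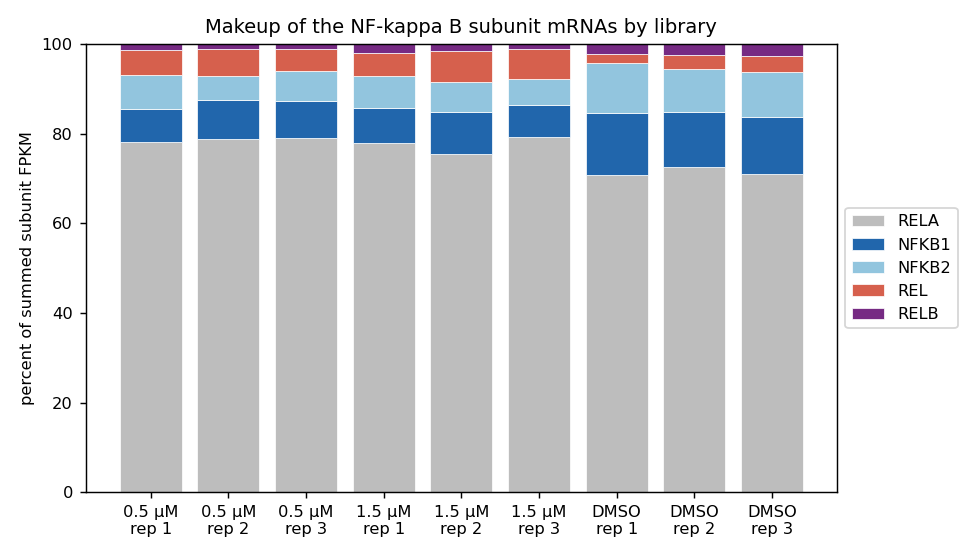
Percent of the summed FPKM of the 5 subunit genes taken by each gene (stacked bars, y axis from 0 to 100) in every library, ordered 0.5 µM JQ1, 1.5 µM JQ1 and DMSO. RELA takes 75.4% to 79.2% of each JQ1 library and 70.8% to 72.7% of each DMSO library, and the REL segment is wider in JQ1 libraries.

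The 2 inhibitors differed greatly in size of response. TNFAIP3 (ENSG00000118503.10) encodes A20, a ubiquitin-editing enzyme that shuts down signalling upstream of IKK. It had 397, 419 and 423 normalized counts at 0.5 µM and 363, 376 and 371 at 1.5 µM, against 1413, 1493 and 1501 in DMSO. The highest JQ1 library was far below the lowest DMSO library. Its log2 change came to -1.83 ± 0.053 (SE, limma adjusted p 1.70e-09) at 0.5 µM and -1.99 ± 0.053 (adjusted p 4.63e-10) at 1.5 µM, or 3.55-fold lower at 0.5 µM and 3.96-fold lower at 1.5 µM. Of the 17514 genes, 692 had a lower log2 change at 0.5 µM and 793 at 1.5 µM.

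NFKBIA (ENSG00000100906.6) encodes IkB-alpha, the inhibitor that retains RELA-containing dimers in the cytoplasm. It had 1288, 1380.5 and 1339 normalized counts at 0.5 µM and 1329, 1198 and 1243 at 1.5 µM, against 1439, 1488 and 1487 in DMSO. The JQ1 libraries were below the DMSO libraries by a small margin. The log2 change was -0.14 ± 0.049 (SE, limma adjusted p 0.0264) at 0.5 µM and -0.23 ± 0.049 (adjusted p 0.00164) at 1.5 µM. The call at 0.5 µM did not hold without DMSO replicate 2 (adjusted p 0.0788), DMSO replicate 3 (0.0715), 0.5 µM replicate 1 (0.0912) or 0.5 µM replicate 3 (0.0503), nor without the 3 H19-high libraries (0.0635), with a range of 0.00379 to 0.0912 over all alternatives.

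By FPKM, NFKBIA stood above TNFAIP3 in every group. NFKBIA averaged 14.1 ± 0.808 FPKM at 0.5 µM, 13.0 ± 0.719 at 1.5 µM and 15.96 ± 0.339 in DMSO. TNFAIP3 averaged 2.23 ± 0.202 FPKM at 0.5 µM, 1.82 ± 0.119 at 1.5 µM and 8.10 ± 0.530 in DMSO. The ratio of TNFAIP3 to NFKBIA was 0.158 ± 0.0157 at 0.5 µM, 0.141 ± 0.0161 at 1.5 µM and 0.507 ± 0.0228 in DMSO (SD, n = 3 each). The log2 ratio differed from DMSO by -1.68 at 0.5 µM and by -1.86 at 1.5 µM, with no overlap of libraries (exact two-sided permutation p = 0.1 for each, the smallest possible).

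The 3 chemokines fell furthest of the 9 genes. CXCL1 (ENSG00000163739.4), a neutrophil attractant, had 9.34, 15.3 and 13.5 normalized counts at 0.5 µM and 5.15, 5.32 and 18.5 at 1.5 µM, against 267, 274 and 277 in DMSO. Every JQ1 library was far under every DMSO library, and within the 1.5 µM group replicate 3, the library without high H19, was the highest. In log2 units CXCL1 changed by -4.34 ± 0.41 (SE, limma adjusted p 4.83e-06) at 0.5 µM and -4.91 ± 0.41 (adjusted p 1.42e-06) at 1.5 µM. Only 22 of 17514 genes had a lower log2 change at 0.5 µM and 29 at 1.5 µM.

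IL8 (ENSG00000169429.6) encodes interleukin-8, a neutrophil attractant that acts on the same receptors. It had 5.19, 1.17 and 7.89 normalized counts at 0.5 µM and 2.06, 1.77 and 2.05 at 1.5 µM, against 88.2, 94.9 and 84.7 in DMSO. Almost no IL8 reads were left in JQ1 libraries: 5, 1 and 7 whole reads at 0.5 µM and 2 in each library at 1.5 µM, against 87, 122 and 90 in DMSO. IL8 changed by -4.19 ± 0.53 in log2 (SE, limma adjusted p 3.95e-05) at 0.5 µM and -4.93 ± 0.53 (adjusted p 9.27e-06) at 1.5 µM. On the FPKM scale the change was -2.54 at 0.5 µM and -2.83 at 1.5 µM, where 0.1 FPKM was added before the log.

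CXCL3 (ENSG00000163734.4), a close relative of CXCL1, kept more of its mRNA. It had 22.8, 42.3 and 25.9 normalized counts at 0.5 µM and 28.9, 18.6 and 21.5 at 1.5 µM, against 160.2, 136 and 147 in DMSO. The JQ1 groups overlapped each other and neither reached DMSO. The log2 change was -2.29 ± 0.26 (SE, limma adjusted p 1.67e-05) at 0.5 µM and -2.65 ± 0.26 (adjusted p 4.29e-06) at 1.5 µM.

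Fold changes of genes this low depend on the 1 added before the log, so the level that remained is also given from the reads. CXCL1 summed to 34 reads at 0.5 µM and 29 at 1.5 µM, against 909 in DMSO, which leaves, after size factors, 4.61% of the DMSO level at 0.5 µM (95% exact interval 3.18% to 6.50%) and 3.46% at 1.5 µM (2.31% to 5.01%). CXCL3 summed to 81 reads at 0.5 µM and 70 at 1.5 µM, against 489 in DMSO, leaving 20.4% at 0.5 µM (16% to 26%) and 15.5% at 1.5 µM (12% to 20%). IL8 summed to 13 reads at 0.5 µM and 6 at 1.5 µM, against 299 in DMSO, leaving 5.36% at 0.5 µM (2.82% to 9.31%) and 2.18% at 1.5 µM (0.793% to 4.80%). These intervals cover counting error only.

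CXCL1 and CXCL3 share much of their sequence with each other and with CXCL2, so reads may have been split among them. Their summed normalized counts were 43.0 ± 13.1 at 0.5 µM, 32.7 ± 8.11 at 1.5 µM and 420.0 ± 9.02 in DMSO (SD, n = 3 each). CXCL2 was listed in the FPKM table alone, at 0.12, 0.08 and 0.08 FPKM at 0.5 µM and 0.01, 0.06 and 0.09 at 1.5 µM, against 0.51, 0.45 and 0.40 in DMSO. All JQ1 values of CXCL2 were below all DMSO values.

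Per length, CXCL1 led CXCL3 in DMSO and the order turned in all 6 JQ1 libraries. CXCL1 had 0.14, 0.29 and 0.24 FPKM at 0.5 µM and 0.08, 0.11 and 0.28 at 1.5 µM, against 4.59, 4.79 and 4.77 in DMSO. CXCL3 had 0.37, 0.56 and 0.43 FPKM at 0.5 µM and 0.47, 0.24 and 0.30 at 1.5 µM, against 2.43, 2.11 and 2.40 in DMSO. The CXCL1 to CXCL3 ratio was 0.485 ± 0.0943 at 0.5 µM, 0.521 ± 0.385 at 1.5 µM and 2.05 ± 0.198 in DMSO, with every JQ1 library below every DMSO library (exact two-sided permutation p = 0.1 at each dose). At 1.5 µM replicate 3 reached 0.933. IL8 was lowest of the 3 chemokines by FPKM, with means of 0.0667 at 0.5 µM, 0.0333 at 1.5 µM and 0.847 in DMSO.

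**Figure D4:**
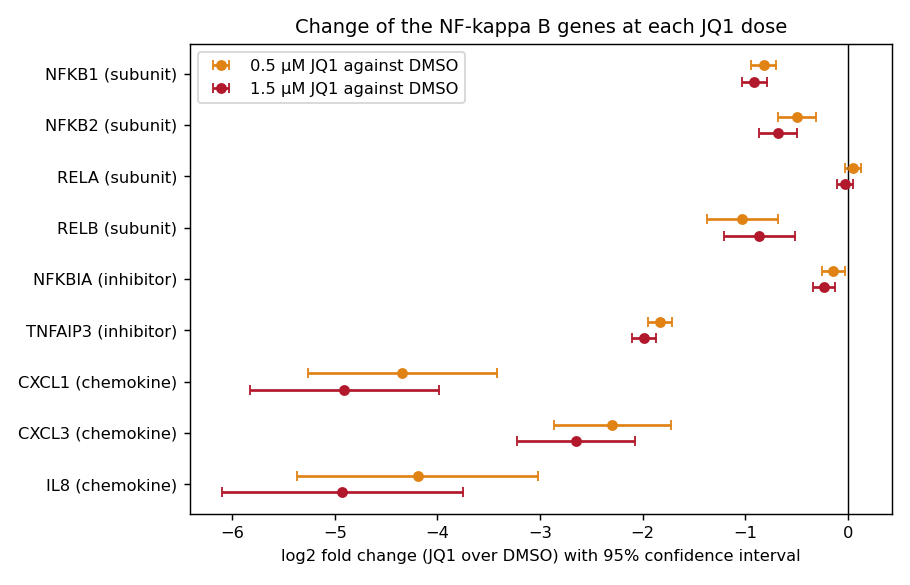
Log2 fold change of each gene at 0.5 µM (orange) and 1.5 µM (red) JQ1 over DMSO (x axis) with 95% confidence intervals from limma, n = 3 libraries per group. The chemokines lie furthest left with the widest intervals, TNFAIP3 lies near -1.83 and -1.99 with narrow ones, and RELA straddles 0.

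The higher dose was set against the lower one directly. At 1.5 µM against 0.5 µM, 0 of the 9 genes passed the adjusted threshold in limma, edgeR or DESeq2, where 12.7% of all genes did in limma (4.66% higher, 8.09% lower). At an unadjusted p under 0.05, 1 gene passed in limma. It was TNFAIP3, with a log2 difference of -0.16 ± 0.053 (SE, limma adjusted p 0.0834) and all 1.5 µM libraries below all 0.5 µM libraries. NFKB2 was the other gene without overlap, with a log2 difference of -0.19 (95% interval -0.37 to 0.0011), so 2 of 9 genes (22.2%) were separate, against 33.7% of all genes.

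The intervals between doses were wide for the chemokines. For CXCL1 the log2 difference was -0.56 (95% interval -1.48 to 0.36), and for IL8 it was -0.73 (-1.91 to 0.44). CXCL3 differed by -0.36 (-0.93 to 0.22). The dose difference of CXCL1 passed at -1.11 (limma adjusted p 0.0432) without 1.5 µM replicate 3 and turned to 0.59 (adjusted p 0.402) without the 3 H19-high libraries. IL8 passed at -1.33 (adjusted p 0.0485) without 0.5 µM replicate 2. NFKB1, RELA, RELB and NFKBIA had differences between -0.09 and 0.17, each with an interval that included 0.

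The remaining genes of the pathway were counted from lists of further members. Among 6 other Rel family and IkB genes, each dose raised 3 and lowered 3. Over all tested genes, the called shares at 0.5 µM were 35.3% up and 34.7% down. At the 1.5 µM dose these shares were 36.9% up and 36.2% down. The median log2 change of the 6 genes was -0.24 at 0.5 µM and -0.36 at 1.5 µM. The median was positive with a minimum of 50 normalized counts (0.31 at 0.5 µM and 0.34 at 1.5 µM) and on FPKM (0.26 at 0.5 µM and 0.34 at 1.5 µM), where 1 rose and 2 fell at each dose. NFKBID, a nuclear IkB protein, fell to 46.2 ± 16.1 normalized counts at 0.5 µM and 49.1 ± 5.88 at 1.5 µM, against 196 ± 12.9 in DMSO. NFKBIB, which encodes the cytoplasmic inhibitor IkB-beta, fell by 0.78 at 0.5 µM and 1.06 at 1.5 µM on the log2 scale. NFKBIZ, another nuclear IkB protein, rose by 0.67 at 0.5 µM and 0.89 at 1.5 µM, a call that did not hold on FPKM (limma adjusted p 0.0858 at 0.5 µM and 0.192 at 1.5 µM).

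Of 10 tested genes for the IKK complex and its activating kinases (11 listed), 8 rose and 1 fell at each dose, where 35.3% of all genes rose at 0.5 µM and 36.9% at 1.5 µM. Their median log2 change was 0.31 at both doses. MAP3K14, the kinase of the non-canonical branch, was 2029 normalized counts at 0.5 µM and 2286 at 1.5 µM, against 1274 in DMSO (log2 change 0.67 at 0.5 µM and 0.84 at 1.5 µM). TAB1, a partner of the kinase TAK1, rose by 0.56 at 0.5 µM and 0.65 at 1.5 µM, and RIPK1, a kinase at the TNF receptor, by 0.41 at 0.5 µM and 0.46 at 1.5 µM. IKBKB, a catalytic IKK subunit, was the single gene that fell, by 0.33 at 0.5 µM and 0.41 at 1.5 µM on the log2 scale. CHUK, the other catalytic IKK subunit, rose by 0.21 at 0.5 µM and 0.24 at 1.5 µM. Both IKBKB and CHUK are named after their values were seen.

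Adaptors and ubiquitin ligases were split, with 7 of 15 higher and 6 lower at each dose, where 35.3% of all genes were higher and 34.7% lower at 0.5 µM, and 36.9% higher and 36.2% lower at 1.5 µM. The median log2 change was -0.09 at 0.5 µM and 0.10 at 1.5 µM, and -0.03 on FPKM at 1.5 µM. IRAK1, a kinase that relays interleukin-1 and Toll-like receptor signals, fell to 4872 ± 99.3 normalized counts at 0.5 µM and 4345 ± 123 at 1.5 µM, against 14103 ± 291 in DMSO. MYD88, the adaptor of the same receptors, fell by 1.26 at 0.5 µM and 1.59 at 1.5 µM on the log2 scale. IRAK4, the kinase that acts between them, rose by 0.75 at 0.5 µM and 1.06 at 1.5 µM.

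Among deubiquitinases and other brakes on the pathway, 10 of 12 listed were tested. At 0.5 µM 7 were higher and 1 lower, where 35.3% of all genes were higher and 34.7% lower. At 1.5 µM 7 were higher and 2 lower, where 36.9% of all genes were higher and 36.2% lower, with a median log2 change of 0.38 at 0.5 µM and 0.42 at 1.5 µM. TAX1BP1, an adaptor for A20, rose by 0.58 at 0.5 µM and 0.62 at 1.5 µM on the log2 scale, and FAM105B (OTULIN), which cuts linear ubiquitin chains, by 0.37 at 0.5 µM and 0.53 at 1.5 µM. ZC3H12A, an RNase that degrades inflammatory mRNAs, had a log2 change of -0.53 at 0.5 µM (limma adjusted p 0.0597) and fell by 0.70 at 1.5 µM (0.0174). At 0.5 µM it passed with upper-quartile scaling (0.0411), with only the 6 libraries compared (0.0301), without 1.5 µM replicate 1 (0.0318) or replicate 2 (0.0366), and without the 3 H19-high libraries (0.0326). The call at 1.5 µM did not hold on FPKM (0.208) or without DMSO replicate 2 (0.0585), DMSO replicate 3 (0.0533) or 1.5 µM replicate 2 (0.0700).

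Of 17 listed receptors that feed the pathway, 6 were tested, with 3 higher and 3 lower at each dose. Of all genes, 35.3% were higher and 34.7% lower at 0.5 µM, and 36.9% higher and 36.2% lower at 1.5 µM. The median log2 change of the receptors was -0.15 at 0.5 µM and -0.04 at 1.5 µM. On FPKM it was -0.47 at 0.5 µM and -0.51 at 1.5 µM. LTBR, the lymphotoxin beta receptor, fell to 77.7 ± 22.7 normalized counts at 0.5 µM and 46.4 ± 4.68 at 1.5 µM, against 639 ± 19.5 in DMSO. TNFRSF1A, the main TNF receptor, fell to 19.7 ± 4.05 at 0.5 µM and 24.4 ± 8.39 at 1.5 µM, against 168 ± 16.2 in DMSO. TLR5, the flagellin receptor, rose to 72.4 ± 7.09 at 0.5 µM and 78.7 ± 7.40 at 1.5 µM, against 24.6 ± 5.49 in DMSO. Of 11 listed ligands 1 was tested, TNFSF12, named because it was the single one. It fell by 3.59 at 0.5 µM and 3.38 at 1.5 µM on the log2 scale. TNFSF12 averaged 2.65 normalized counts at 0.5 µM and 4.37 at 1.5 µM, against 40.6 in DMSO. Both JQ1 means were near the floor, and it passed the filter value of 10 through DMSO alone. TNF was at most 0.01 FPKM in any library, and LTB and IL1B were listed at 0 in all 9.

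Of 16 other chemokines listed, 4 were tested and all 4 were lower at both doses, where 34.7% of all genes were lower at 0.5 µM and 36.2% at 1.5 µM, with a median log2 change of -1.73 at 0.5 µM and -1.83 at 1.5 µM. With a minimum of 50 normalized counts, which leaves 3 genes, the median at 1.5 µM was -1.17. CXCL6, a neutrophil attractant of the same class, fell to 87.1 ± 12.6 normalized counts at 0.5 µM and 74.0 ± 2.02 at 1.5 µM, against 422 ± 14.3 in DMSO. CCL28, a mucosal chemokine, fell by 1.01 at 0.5 µM and 1.17 at 1.5 µM on the log2 scale, and CXCL16 by 1.18 at 0.5 µM and 1.12 at 1.5 µM. The signalling receptors for CXCL1, CXCL3 and IL8 were close to absent, with CXCR1 at most 0.01 FPKM and CXCR2 listed at 0. DARC, a receptor that binds chemokines without classical signalling, fell by 1.07 at 0.5 µM and 1.31 at 1.5 µM.

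A further list held 26 known NF-kappa B target genes, 17 of them tested. At 0.5 µM 5 were higher and 7 lower, where 35.3% of all genes were higher and 34.7% lower, so the share called was near that of all genes (70.0%). At 1.5 µM 6 were higher and 9 lower, where 36.9% of all genes were higher and 36.2% lower, with a median log2 change of -0.16 at 0.5 µM and -0.24 at 1.5 µM. CSF1, the macrophage growth factor, fell to 69.2 ± 11.2 normalized counts at 0.5 µM and 41.7 ± 10.9 at 1.5 µM, against 368 ± 26.5 in DMSO. ICAM1, an adhesion molecule for leukocytes, fell to 5.55 ± 1.92 at 0.5 µM and 8.74 ± 2.22 at 1.5 µM, against 52.2 ± 10.7 in DMSO. GADD45B, a stress-response gene, rose to 51.2 ± 21.4 at 0.5 µM and 61.5 ± 6.06 at 1.5 µM, against 8.51 ± 1.32 in DMSO.

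**Figure D5:**
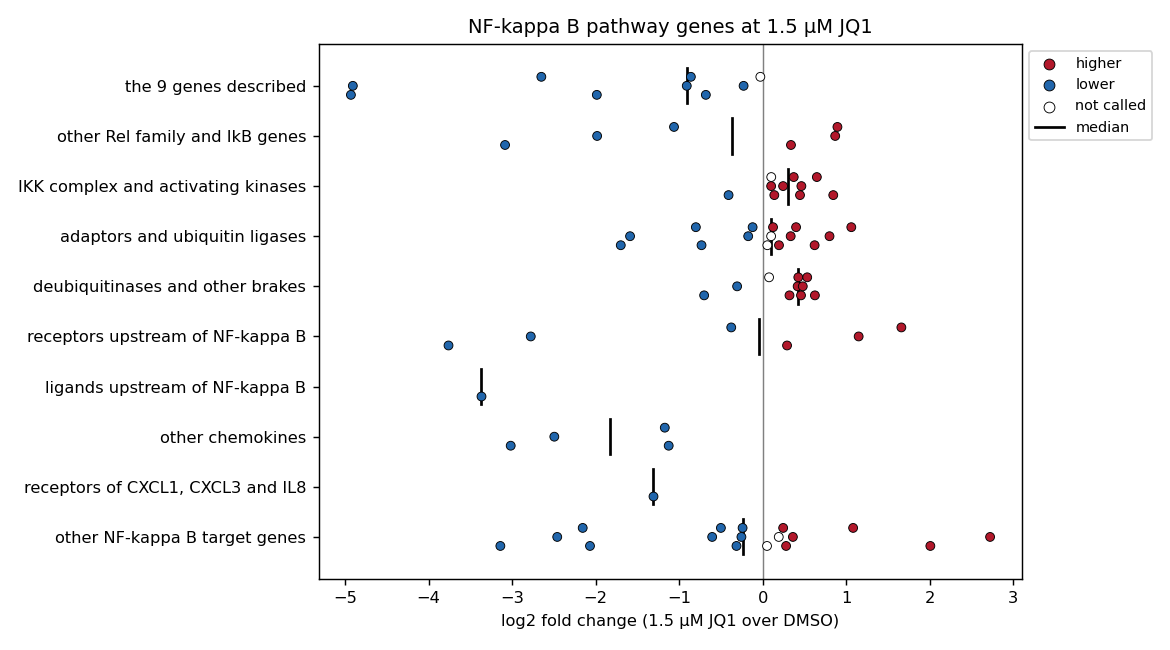
Log2 fold change at 1.5 µM JQ1 over DMSO (x axis) of every tested gene in each list, with the 9 genes described in the top row; red points rose and blue points fell at a limma adjusted p under 0.05, white points did not pass, and black bars are list medians. IKK-complex genes and brakes sit mostly right of 0 (8 of 10 and 7 of 10 rose), and all 4 other chemokines sit left of it. Of these 4, CXCL11 averaged under the filter value of 10 in both JQ1 groups.

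Markers of immune, fibroblast and endothelial cells were followed because such cells also make chemokines. Of 15 markers listed, 14 were in the FPKM table, VWF, an endothelial marker, was at 0 in every library, and the leukocyte marker PTPRC was at most 0.02 FPKM. The summed level was 6.19 to 10.45 FPKM at 0.5 µM and 5.60 to 9.28 at 1.5 µM, against 16.2 to 17.6 in DMSO. Of the 4 markers tested, 2 (CD14 and COL1A2) fell at each dose, where 34.7% of all genes fell at 0.5 µM and 36.2% at 1.5 µM. COL1A2 had 3939 normalized counts in DMSO, against 106 for COL1A1, 90.9 for COL3A1 and 75.0 for CD14. COL1A1 was not called at either dose. COL3A1 was not called either and averaged 400 at 0.5 µM and 720 at 1.5 µM, with high values in the 3 H19-high libraries. The summed level thus does not stand for each marker. The part of such cells in the chemokine values was not tested.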

How the data were processed

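RNA-seq libraries from COR-L279 cells were made with a stranded total RNA kit, per the labels' protocols. Cutadapt, STAR and RSEM, and build hg19, are named in the submitters' processing notes, without versions. The authors deposited FPKM values from each library and a table of normalized read counts (counts divided by size factors, per the column values), treated as a signal and not as raw counts. The values in each library were whole multiples of 1 read within 0.001 for 100% of genes, so whole reads could be recovered for edgeR and DESeq2.

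The main test was limma 3.58.1 (with trend) in R 4.3.3 on log2 of the normalized count plus 1, over all 9 libraries, with Benjamini-Hochberg adjustment over 17514 genes that reached 10 in at least 3 libraries (4 were left out). A gene could pass that filter on the level of 1 group alone, as IL8 did in DMSO. Alternatives used edgeR 4.0.16 (quasi-likelihood), DESeq2 1.42.0, other scalings, pseudocounts of 0.1 and 5, other filters, FPKM of at least 0.5 with 0.1 added, and left-out libraries. Other list genes named were the 3 with the largest change at 1.5 µM among those that passed and averaged at least 20; exceptions are stated. Promoter windows came from RefSeq (GRCh38.p14) and were aligned with Biopython 1.88. The 9 genes and all lists were chosen with earlier results of these data known. The replicates are biological per the labels, which do not say whether the numbers pair libraries across groups. The main test did not pair them.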

Additional observations from a re-analysis of the deposited data

How the results depend on the processing

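Over 198 combinations of gene and alternative at each dose against DMSO, the 9 genes kept direction and side of the threshold in 192 at 0.5 µM and 198 at 1.5 µM. The exceptions at 0.5 µM were the 5 losses of the NFKBIA call given above and the sign of RELA (-0.0052, upper-quartile scaling). No scaling moved the median of all genes by over 0.1. Genes called at 0.5 µM numbered 11334 to 12844 and at 1.5 µM 12026 to 14002 when 1 library was left out. Between doses, 2233 genes were called (816 higher, 1417 lower), against 892 on FPKM (174 higher, 718 lower), 1123 with the 6 JQ1 libraries alone, 1002 to 3217 leaving out 1 library, and 48 (0 higher, 48 lower) without the 3 H19-high libraries. The last setting leaves a single 1.5 µM library, which is assumed to vary like the others, and there CXCL1 turned to 0.59. Of the 9 genes, 0 to 1 passed between doses when 1 library was left out. With the replicate number as a block, 12329 genes were called at 0.5 µM, 12852 at 1.5 µM and 2030 between doses, and 8, 8 and 0 of the 9 genes. Deviations from the group mean correlated at -0.385 to 0.131 for same-numbered libraries and at -0.145 to 0.253 for differently numbered ones. With 3 replicates per group these values cannot settle whether the numbers pair the libraries. Alternatives for the FPKM ratios were chosen after seeing the data, and none of them turned a direction. The cause of the changed counts was not tested. Depth limits the chemokines most, since IL8 left 6 reads at 1.5 µM.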

Other observations

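Genes with the most similar profile to each NF-kappa B gene were found by Pearson correlation of log2 normalized counts over the 9 libraries, among at least 14226 genes averaging 100 or more. The closest to TNFAIP3 was TENC1 (r = 0.9995), followed by ANKLE1 (0.999), and to NFKB1 it was NAT10 (0.999) and COLGALT2 (0.998). For the chemokines the closest were BTN1A1 to CXCL1 (0.995), POLR3G to CXCL3 (0.998) and SLC4A2 to IL8 (0.998). NFKB2 was closest to PAK6 (0.992) and RELB to PKP1 (0.992). NFKBIA was closest to SLC27A3 (0.972), with 20 genes above 0.95, and RELA to STX1A (0.907), with 0 genes above 0.95. TNFAIP3 had 2608 genes and NFKB1 2560 genes above that value. The libraries share their treatment groups, no p is given, and r says nothing of shared control.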
